A study of Homo sapiens with 6 samples.

Results

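Zinc finger genes on human chromosome 19 were examined in NB4 cells with and without sgRNAs against ARID1A. The genes were the protein-coding genes of chromosome 19 (GENCODE 29, GRCh38) named ZNF plus a number, of which 246 were annotated. Of these, 245 were in the deposited tables and 216 had a mean of 10 or more estimated counts over the 6 samples. These 216 members, out of 52992 genes summed from the tables, were chosen by name, position and level, not by how they responded. The choice was made with earlier results of these data known. Just under the minimum were ZNF841, ZNF578 and ZNF787, with means of 8.76, 8.85 and 8.96 counts, and the lowest members were ZNF880, ZNF284 and ZNF888, with means of 12.7, 14.4 and 15.1 counts. Among the 29 genes under the minimum, 7 (ZNF112, ZNF256, ZNF442, ZNF229, ZNF534, ZNF99 and ZNF729) were listed at 0 in all 6 samples, where a count of 0 allows up to 3 counts, or 0.0547 to 0.065 CPM (counts scaled to a library of 1000000) by sample, as counting error only.

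Most proteins of this family carry an array of C2H2 zinc fingers, which read DNA sequence, and many begin with a Krüppel-associated box (KRAB). The KRAB box binds TRIM28, which brings the histone methyltransferase SETDB1 and heterochromatin proteins to the bound site, often a transposable element. The family expanded by tandem duplication, and the genes lie in clusters of close relatives along chromosome 19, where their own bodies carry heterochromatin marks. ARID1A is a subunit of SWI/SNF, a complex that moves nucleosomes, and the comparison asks whether the RNA levels of these clustered genes differed when ARID1A was targeted.

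NB4 is an established acute promyelocytic leukemia line, here carrying Cas9 with an mCherry marker and an inducible sgRNA with a GFP marker, sorted as doubly positive populations. The sgRNA was directed at lacZ (LacZ, labelled WT) or at one of a pair of ARID1A sites (sg1 and sg5, labelled ARID1A-deficient), with 2 replicates per group. All 3 groups received 1 µg/ml doxycycline for 7 days, and the methods describe further culture without it. Nothing in the sources states that replicates were separate cultures, so p-values measure the spread between these samples, which may be technical.

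Total estimated counts were 46131178 to 54843745 per sample. ARID1A RNA was at 155 and 191 CPM in LacZ, 211 and 191 CPM in the samples labelled sg1 and 124 and 145 CPM in those labelled sg5, with adjusted p of 0.993 and 0.661 in edgeR. Small indels need not lower RNA, so this level is not a measure of the protein. The 7 promyelocyte markers summed to 15700 and 17800 CPM in LacZ, 16400 and 15200 with sg1, and 14000 and 15300 with sg5, nearly all of it MPO (13400 to 16800 CPM), whereas ELANE was near 0 (no more than 0.171 CPM). In 4 of the 7 (AZU1, CTSG, CD33 and ELANE) all ARID1A-deficient samples were below both LacZ samples, and 0 were above. The shares over all genes tested were 10.4% below and 9.72% above. ELANE did not pass the filter for testing and rests on few counts. AZU1 was at 217 and 215 CPM in LacZ and 160 to 180 CPM in the ARID1A-deficient samples, and CTSG at 92.9 and 90.7 against 57.0 to 70.6 CPM. Of the 6 markers tested, edgeR called 0 with sg1, sg5 or both (beside 0.0378%, 0.0972% and 0.167% of all genes). DESeq2 called AZU1 and CTSG with sg5 (adjusted p of 0.0318 and 0.0699, beside 1.35% of all genes) and 0 with sg1 (0.742%). The part of such a shift in the results was not tested. HBB and FCGR3A were at 0. The B cell gene CD79A was at 6.21 and 4.62 CPM in LacZ and at 9.16 to 10.9 CPM in the ARID1A-deficient samples, while MS4A1 was near 0, and the part of such cells in the results was not tested. On the first principal component of all genes (34.4% of the variance), sg1 replicate 1 and sg5 replicate 2 lay at 34.3 and 46.7, apart from the other four samples at -30.3 to -11.3. These samples are therefore given singly throughout, and their part in each result was not tested.

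Sequence is shown first because it bears on how well reads can be assigned to these genes. The coding sequences repeat the fingers and the linker between them, and a 31-base word is the unit by which the quantification tool matches reads by default. Of 1156238 such words in member transcripts, 36678 occurred in more than 1 member. The most widespread word, in 28 members, follows. The word below it, in 22 members, is the next in rank when words that overlap the first further are passed over. Each lies within coding sequence, and the end of the first is the start of the second.
Finger and linker word in 28 members: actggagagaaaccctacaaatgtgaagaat
Finger word in 22 members: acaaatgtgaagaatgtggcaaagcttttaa
The median member shared 11.6% of its words with any other gene and 3.46% with other members. Sharing with any gene was at most 10% for 93 members and above 30% for 30 members. For ZNF320, 70.6% of its words were also in ZNF468, a member of the same cluster. Counts of such genes depend on how the tool divided shared reads. Among genes described below, ZNF709 (78.6% shared), ZNF20 (58.5%) and ZNF224 (42.5%) are uncertain for this reason. The same holds for ZNF324 (37.1%), ZNF808 (31.8%) and ZNF358 (31.7%).

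A start site with its promoter was found by symbol in RefSeq (GRCh38.p14) for 191 of the members, as 300 bases from 250 before to 50 after the start. The letters CCGGAAG, an ETS factor motif searched on both strands, were in 46.6% of member promoters and in 10.3% of all 35114 promoters. The CCAAT box (CCAAT) was in 55% against 34.6%, and the GC box (GGGCGG) in 66.0% against 45.0%. A TATA box (TATAAA) was in 2.09% against 11.5%, and the YY1 letters AAGATGGCG were in 4.19% against 1.75%. Members with a KRAB pattern in the protein (155 promoters) held CCGGAAG in 51.0% and CCAAT in 61.3%, and those without it (36 promoters) held each in 27.8%. A match is a description of letters and not evidence of binding. The 3 promoters below (bases before the start) belong to ZNF431, a KRAB member with 1 ETS match and 2 CCAAT matches, to ZNF317, one of the most abundant members, with 4 CCAAT matches, and to ZNF536, which had the smallest p for both sgRNAs together. Capitals mark matches to the motifs, on either strand, and neighbouring matches can touch or overlap.
ZNF431 (chr19:21141790-21142039, plus strand): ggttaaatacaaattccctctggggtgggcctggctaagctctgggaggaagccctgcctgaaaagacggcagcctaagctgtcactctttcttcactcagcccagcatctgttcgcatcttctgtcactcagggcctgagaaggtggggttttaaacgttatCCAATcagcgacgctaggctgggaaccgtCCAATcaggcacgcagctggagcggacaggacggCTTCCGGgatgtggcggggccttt
ZNF317 (chr19:9140147-9140396, plus strand): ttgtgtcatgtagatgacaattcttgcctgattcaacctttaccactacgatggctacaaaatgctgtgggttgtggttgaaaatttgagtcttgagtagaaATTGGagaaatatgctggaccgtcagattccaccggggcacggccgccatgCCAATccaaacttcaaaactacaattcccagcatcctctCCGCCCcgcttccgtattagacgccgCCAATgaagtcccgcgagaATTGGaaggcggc
ZNF536 (chr19:30225342-30225591, plus strand): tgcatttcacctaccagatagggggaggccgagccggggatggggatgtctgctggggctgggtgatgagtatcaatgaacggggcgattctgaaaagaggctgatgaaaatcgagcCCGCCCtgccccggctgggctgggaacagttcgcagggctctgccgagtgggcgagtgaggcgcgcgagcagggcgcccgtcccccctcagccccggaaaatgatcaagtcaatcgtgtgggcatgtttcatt
ZNF536 held 1 GC box and none of the other motifs. RefSeq and GENCODE can place the start of a gene differently.

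In the annotated proteins, 177 members held a KRAB A box pattern and 39 did not. The pattern is a short run of conserved residues, so a degenerate box can be missed. Members with the pattern had a median of 13 C2H2 fingers and those without it a median of 10, and the number of fingers ranged from 0 in the annotated ZNF738 to 32 in ZNF91. Transcript GC content had a median of 41.7% for members with KRAB (quartiles 39.5% and 44.0%), 56.3% for members without it (41.0% and 62.6%, so the classes overlap) and 59.9% for the other protein-coding genes of the chromosome.

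Levels in LacZ cells were low for most members. The median was 3.55 TPM (an abundance that allows for transcript length), with quartiles of 1.6 and 6.88 TPM. Only 31 members were above 10 TPM and 31 were below 1 TPM. The top 5 members held 22.2% of the summed TPM. ZNF414 was at 84.6 and 95.4 TPM in LacZ, and ZNF317 was at 85.1 and 83.0 TPM. ZNF266 followed at 59.1 and 56.6 TPM, ZNF561 at 48.6 and 42.5 TPM, and ZNF146, whose protein is almost wholly zinc fingers, at 39.1 and 37.7 TPM. ZNF414 and ZNF317 did not differ beyond the spread of the LacZ samples, while the values of ZNF266, ZNF561 and ZNF146 did not overlap. Members without KRAB were at a median of 5.16 TPM and those with it at 3.47 TPM. Number of fingers and level were weakly related (Spearman's rho of -0.15 across the 216 genes, which share libraries).

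**Figure D1:**
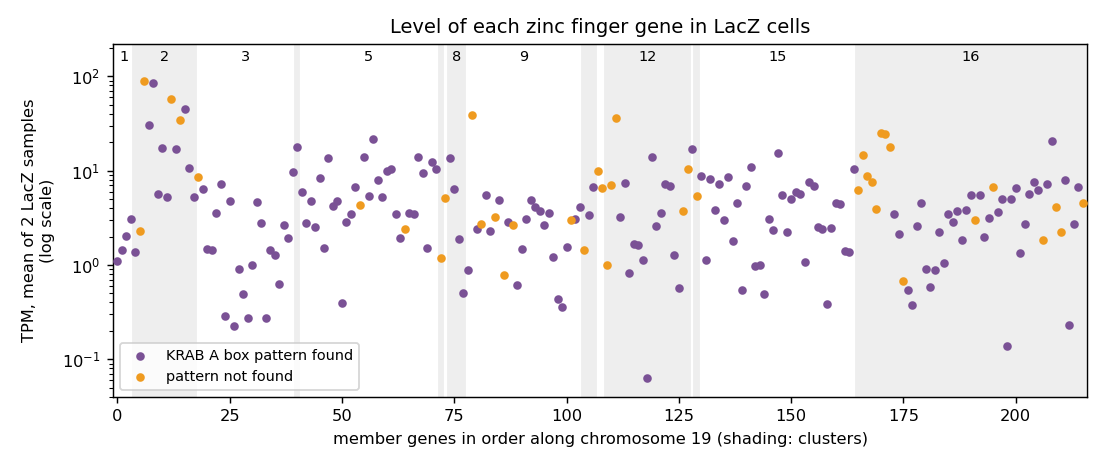
Level of each member in LacZ cells (mean TPM of 2 samples, log axis) in order along chromosome 19, with alternate clusters shaded and the larger ones numbered. Cluster 2 holds 4 of the 5 most abundant members, and the lowest member was at 0.0631 TPM.

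No member passed a false discovery rate (FDR) of 0.1 in edgeR in any of 4 comparisons. For sg1 against LacZ, 0 of 216 members were called, beside 0.0378% of all 18514 genes tested, and 5 members had an unadjusted p under 0.05 (2.31%, beside 4.15% of all genes). For sg5 against LacZ, 0 were called (0.0972% of all genes) and 6 had an unadjusted p under 0.05 (2.78%, beside 7.47%). For both sgRNAs together (the mean of the sg1 and sg5 contrasts), 0 were called (0.167% of all genes) and 7 had an unadjusted p under 0.05 (3.24%, beside 7.21%). For sg1 against sg5, 0 were called (0.0054% of all genes) and 5 had an unadjusted p under 0.05 (2.31%, beside 1.38%). So few genes were called in all that a count of 0 among the members is close to the background. DESeq2 called ZNF865 with sg5 (log2 fold change of -0.67, adjusted p = 0.0443) and ZNF536 for both sgRNAs (-0.87, adjusted p = 0.0998), 1 member each beside 1.35% and 1.81% of all genes, and it called 0 members in the remaining comparisons (0.742% for sg1 and 0.027% for sg1 against sg5). Blocking on the replicate number, edgeR called 0 members in each of the 4 comparisons, beside 0.0054%, 0.0054%, 0.0162% and 0% of all genes, and 5, 5, 6 and 2 members had an unadjusted p under 0.05, beside 3.59%, 5.83%, 5.84% and 1.12%. A fit without the filter on low counts called 2 members for sg1, 1 for sg5 and 3 for both, beside 1.05%, 1.92% and 2.12% of all genes. A fit without sg1 replicate 1 and sg5 replicate 2 called 1, 4 and 4 members and 2 between the sgRNAs, beside 2.2%, 4.09%, 4.22% and 1.12% of all genes.

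The members moved little. The median log2 fold change was -0.01 or -0.02 in each contrast with LacZ, and a median difference of -0.03 lay between sg1 and sg5. The same medians over all genes tested were 0.002 for sg1, -0.01 for sg5 and -0.007 for both. Members below 0 numbered 115 for sg1 (53.2%, beside 49.7% of all genes), 110 for sg5 (50.9%, beside 51.4%) and 115 for both (53.2%, beside 51.3%). A log2 fold change above 0.5 in size was seen for 5.09% of members with sg1 and 6.02% with sg5, beside 14.4% and 16.7% of all genes, for 3.7% with both sgRNAs joined, beside 13.7%, and for 2.78% between sg1 and sg5, beside 11.3%. The 95% interval of the fold change lay wholly within a log2 of 1 in either direction for 188 members with sg1 and 185 with sg5 (87% and 85.6%, beside 64.9% and 63.5% of all genes). It lay wholly within 0.5 for 57 and 50 members (26.4% and 23.1%), fewer by share than the 34.7% and 29.9% of all genes. A log2 change of 1 was thus outside the interval for most members, while smaller changes were not resolved with 2 samples per group. Of the 216 members, 23 had a mean under 50 counts. All 18514 genes held 4340 at 10 to under 50 and others below 10. The part of count level in the shares above was not tested. Log2 quartiles of the 220 ZNF genes on other chromosomes were -0.146 and 0.092 with sg1, and -0.196 and 0.119 with sg5. Members had -0.153 and 0.113, and -0.15 and 0.137. All genes had -0.177 and 0.138, and -0.236 and 0.162. In these bulk samples, a lower share of expressing cells and less RNA per cell cannot be told apart.

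**Figure D2:**
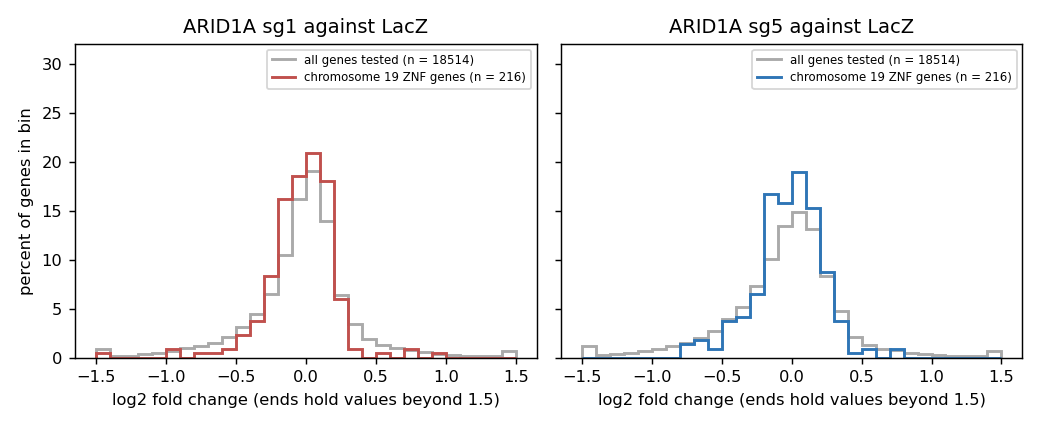
Percent of genes by log2 fold change (bins of equal width, values beyond 1.5 in the end bins) for the 216 members and all 18514 genes tested, for sg1 and sg5 against LacZ. Both distributions centre near 0. The members have smaller tails than all genes, of which a larger share had low counts.

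Sample by sample, 22 members (10.2%) had all 4 ARID1A-deficient samples below both LacZ samples, beside 10.4% of all genes, and 19 (8.8%) had all 4 above, beside 9.72%. On TPM in place of CPM, 6 members were above. Of the 23 members with a mean under 50 counts, 7 (30.4%) were below and 0 above, beside 12.3% and 4.33% of the 4340 genes tested with a mean of 10 to under 50 counts. Taken singly, sg1 replicate 1 was below both LacZ samples for 94 members (43.5%, beside 41.5% of all genes) and sg5 replicate 2 for 98 (45.4%, beside 42.6%). For sg1 replicate 2 the count was 62 (28.7%, beside 31.6%) and for sg5 replicate 1 it was 66 (30.6%, beside 36.8%). Members above both LacZ samples numbered 65 in sg1 replicate 1 (30.1%, beside 37% of all genes), 76 in sg1 replicate 2 (35.2%, beside 35.1%), 86 in sg5 replicate 1 (39.8%, beside 36.7%) and 65 in sg5 replicate 2 (30.1%, beside 37.4%). The libraries that stood apart thus had more members low than high, and the same held over all genes in them. The other ARID1A-deficient libraries had more members high than low. Over all genes this also held in sg1 replicate 2, while sg5 replicate 1 was about even (36.8% below and 36.7% above).

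Members summed to 1409 and 1432 TPM in LacZ, 1322 and 1394 TPM with sg1, and 1390 and 1289 TPM with sg5. All 4 ARID1A-deficient TPM sums were below both LacZ sums, also those of sg1 replicate 2 and sg5 replicate 1, in which more members were above than below LacZ in CPM. This did not hold for counts. Members held 0.2191% and 0.2136% of estimated counts in LacZ, 0.2033% and 0.2177% with sg1, and 0.2193% and 0.2027% with sg5. By that share, sg5 replicate 1 was above both LacZ samples and sg1 replicate 2 lay between them. The lowest sums were those of sg1 replicate 1 and sg5 replicate 2. KRAB members summed to 950 and 952 TPM in LacZ, 869 and 934 TPM with sg1, and 948 and 882 TPM with sg5, with the same samples lowest. Members without KRAB summed to 459 and 481 TPM in LacZ, 453 and 460 TPM with sg1, and 443 and 407 TPM with sg5, where sg5 replicate 2 alone was well below the rest. Replicates of a group differed by a median of 0.129 (log2) over members in LacZ, 0.211 with sg1 and 0.178 with sg5, beside 0.157, 0.255 and 0.261 over all genes.

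ZNF536, a repressor known from neuronal differentiation and the only gene of cluster 6 below, had the smallest p for both sgRNAs together. The gene lies at chr19:30228290-30713538 on the plus strand. It had 173 and 152 estimated counts in LacZ, 66 and 83 with sg1, and 91 and 90 with sg5. As CPM scaled by TMM factors, its levels were 3.28 and 3.01 in LacZ, 1.31 and 1.87 with sg1, and 1.94 and 1.78 with sg5. The 4 ARID1A-deficient samples were all below both LacZ samples, with no overlap. The log2 fold change was -0.99 (SE 0.28) with sg1 and -0.76 (SE 0.27) with sg5, and -0.88 (SE 0.23) for both, with an adjusted p of 0.35 in edgeR, which missed the threshold. At about 1 TPM in LacZ (1.25 and 1.12 TPM), it is a low-level gene.

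ZNF865, a member with 21 fingers and no KRAB pattern, lies at chr19:55605405-55617269 on the plus strand in cluster 16. It had 1178 and 1216 counts in LacZ, 965 and 882 with sg1, and 785 and 624 with sg5, which gave 22.4 and 24.1, 19.1 and 19.8, and 16.7 and 12.3 CPM. The groups did not overlap, and the lowest sample was sg5 replicate 2. The log2 fold change was -0.26 (SE 0.17) with sg1 and -0.68 (SE 0.17) with sg5, with adjusted p of 0.993 and 0.418. Without sg1 replicate 1 and sg5 replicate 2, where each sgRNA has 1 sample that is assumed to vary like LacZ, edgeR called ZNF865 with sg5 (-0.47, adjusted p = 0.0415) along with 3 other members, beside 4.09% of all genes.

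Among the other members with all 4 ARID1A-deficient samples on one side of LacZ, ZNF114, ZNF880 and ZNF793 were lower and ZNF480, ZNF20, ZNF566, ZNF439 and ZNF100 were higher in these samples, none past the threshold. ZNF114 was at 19.3 and 20.7 CPM in LacZ, 14.4 and 15.2 with sg1, and 17.3 and 18.0 with sg5 (log2 fold change for both of -0.31, SE 0.12). ZNF480 was at 29.7 and 28.2 CPM in LacZ, 38.5 and 31.1 with sg1, and 34.6 and 37.1 with sg5 (0.29, SE 0.12). In ZNF114 the sg1 samples were the lowest, whereas in ZNF480 each ARID1A-deficient sample was above LacZ and the replicates of sg1 were the farthest apart. ZNF20 was at 0.873 and 0.734 CPM in LacZ, 1.15 and 1.55 with sg1, and 1.39 and 1.27 with sg5 (0.73, SE 0.27), and its TPM, 1.22 and 0.778 in LacZ and 1.22 to 2 elsewhere, met at 1.22. ZNF566 was at 4.16 and 1.51 CPM in LacZ, 5.66 and 5.27 with sg1, and 5.09 and 4.79 with sg5 (0.87, SE 0.35), so the LacZ replicates differed by more than the group means did. Its TPM of 3.17 and 1.61 in LacZ enclosed those of the ARID1A-deficient samples, 2.07 to 2.98. Its log2 fold change for both was 1.79 without LacZ replicate 1, 0.32 without LacZ replicate 2 and 0.13 with the offset for transcript length. ZNF880, with 25 and 19 counts in LacZ, 6 and 2 with sg1 and 16 and 8 with sg5, and ZNF793, with 48 and 57, 28 and 35, and 33 and 25, rested on few counts. ZNF439 (0.22, SE 0.13) and ZNF100 (0.20, SE 0.12) were higher by less, and ZNF524, among the largest decreases of members with 50 or more counts, overlapped with LacZ (-0.32, SE 0.21).

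Some members tracked the samples that stood apart more than the groups. ZNF333, a KRAB member alone at its position (chr19:14689801-14733746, plus strand), was at 24.7 and 24.1 CPM in LacZ, 14.6 and 24.6 with sg1, and 23.6 and 15.7 with sg5. Its low values were sg1 replicate 1 and sg5 replicate 2, and the other four samples were within 23.6 to 24.7 CPM. ZNF358, which lacks KRAB, was at 2.89 and 3.57 CPM in LacZ, 2.25 and 5.09 with sg1, and 7.01 and 2.39 with sg5. Here again the same pair was lowest, and sg5 replicate 1 was highest. The log2 fold change of ZNF358 for both sgRNAs was 0.36 (SE 0.48) and became -0.12 without sg5 replicate 1. Without the pair that stood apart it was 0.89 and called in edgeR (adjusted p = 0.00167, beside 4.22% of all genes).

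**Figure D3:**
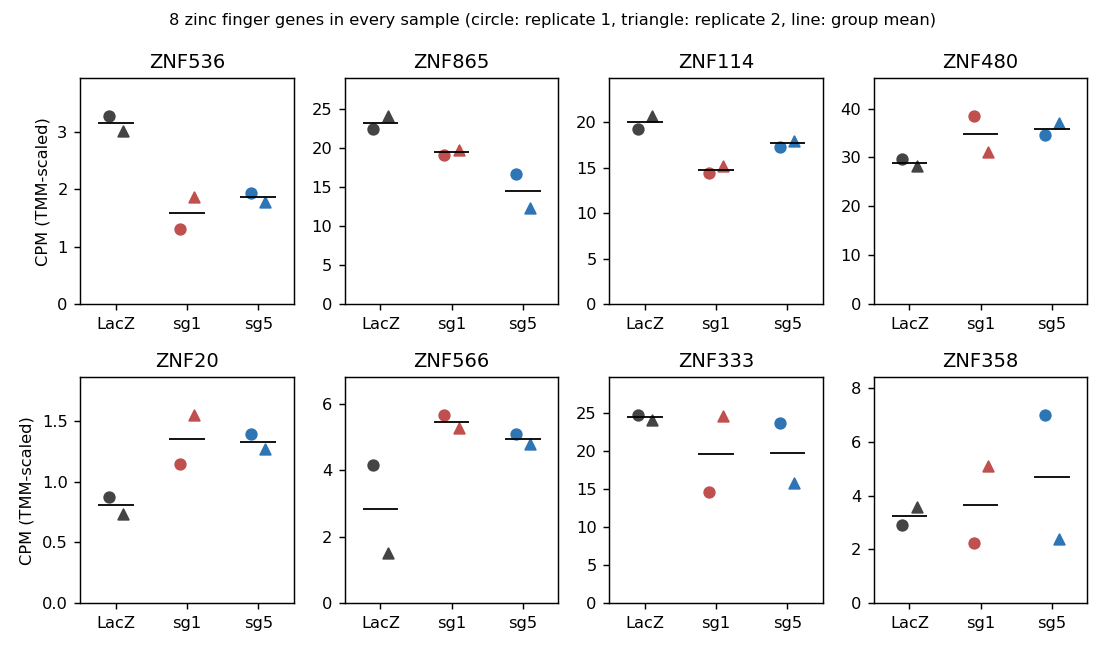
CPM (TMM-scaled, axes from 0) of 8 members in every sample, by group, with lines at the mean of 2 samples. ZNF536, ZNF865 and ZNF114 have no overlap between LacZ and the ARID1A-deficient samples, whereas ZNF333 and ZNF358 are split within sg1 and within sg5.

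By position, a distance of over 1 Mb between neighbouring starts divided the annotated genes into 16 clusters (20 with 0.5 Mb). Of these, 7 clusters held 14 or more members. When the counts of each cluster were summed and tested beside the other genes, 0 of 16 clusters passed an FDR of 0.1 in edgeR in any of the 4 comparisons. At an unadjusted p under 0.05 there were 2 with sg1, 1 with sg5, 2 for both and 0 between the sgRNAs, all of them cluster 6 or cluster 13, which are ZNF536 and ZNF114 alone. The smallest adjusted p was 0.347, and no other tool was run on the sums.

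**Figure D4:**
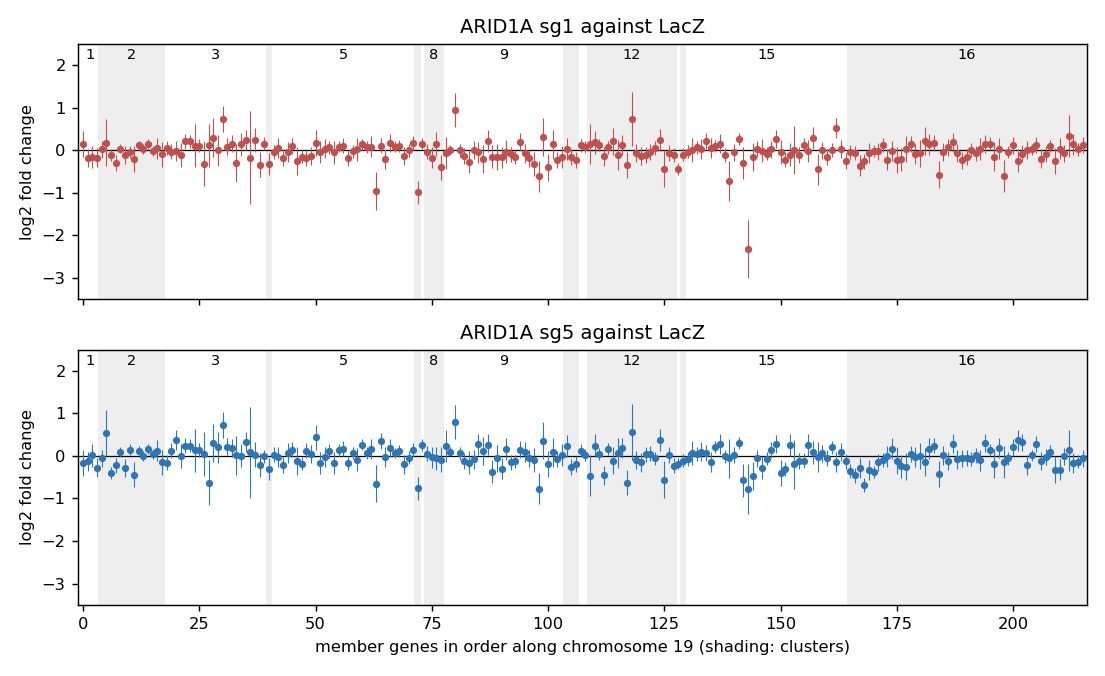
Log2 fold change of each member with its standard error, in order along chromosome 19, for sg1 (upper) and sg5 (lower) against LacZ, with alternate clusters shaded. Medians of the 7 clusters with 14 or more members ran from -0.11 (cluster 9, sg1) to 0.13 (cluster 3, sg5). Clusters 4, 6 and 13 are single genes below 0 with both sgRNAs. Single genes lie apart in larger clusters, of which the lowest is ZNF880 with sg1 at -2.32.

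Cluster 2 (7.07 to 9.79 Mb, 14 of 15 annotated genes expressed) was the most abundant, at 406 and 408 TPM in LacZ, 386 and 405 TPM with sg1, and 393 and 364 TPM with sg5. Its members had a median log2 fold change of 0.01 with sg1 and 0.02 with sg5. ZNF414 was its lead, at 51.4 and 63.4 CPM in LacZ, 50.4 and 56.1 with sg1, and 45.8 and 40.5 with sg5 (-0.41, SE 0.14 with sg5, adjusted p = 0.609). ZNF317 was at 234 and 230 CPM in LacZ, 251 and 227 with sg1, and 240 and 255 with sg5. Cluster 3 (11.5 to 12.6 Mb, 22 of 25) held members of low level, with a median of 1.46 TPM, and summed to 62.8 and 60.7 TPM in LacZ, 58.6 and 62.8 TPM with sg1, and 62.9 and 56.0 TPM with sg5. Its median log2 fold change was 0.11 with sg1 and 0.13 with sg5, the highest of the 7 large clusters. In the mean of these contrasts, 7 of 22 members were below 0, beside 51.3% of all genes. However, the replicate medians in LacZ alone spanned 0.08 to -0.08. It also holds ZNF791, at 10.3 and 11.2 CPM in LacZ, whose TPM of 6.60 and 12.9 in LacZ and 4.24 to 10.2 elsewhere varied more than its counts.

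Cluster 5 (19.7 to 24.1 Mb, 31 of 37), the pericentromeric group on the short arm that holds several repressors of transposable elements, summed to 202 and 204 TPM in LacZ, 190 and 197 TPM with sg1, and 201 and 187 TPM with sg5. ZNF91, which silences SVA elements, was at 13.0 and 14.9 TPM in LacZ, 15.0 and 15.0 TPM with sg1, and 17.6 and 12.2 TPM with sg5. ZNF93, which silences a class of LINE-1 elements, was at 8.89 and 7.81 TPM in LacZ, 7.89 and 8.81 TPM with sg1, and 9.26 and 7.64 TPM with sg5. For both, the LacZ values lay within the range of the other samples. ZNF431, ZNF675, ZNF253 and ZNF85 had log2 fold changes for both sgRNAs of 0.12, 0.12, 0.02 and 0.01, with SEs of 0.12, 0.12, 0.20 and 0.20. ZNF738, the lead of the cluster, was at 20.4 and 21.5 CPM in LacZ, 15.6 and 21.2 with sg1, and 18.6 and 18.7 with sg5.

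Cluster 9 (36.2 to 37.8 Mb, 26 of 26) was led by ZNF146, which held 36.8% of its TPM and was at 74.9 and 71.5 CPM in LacZ, 75.9 and 71.2 with sg1, and 74.3 and 82.8 with sg5. The median log2 fold change of the cluster was -0.11 with sg1 and -0.02 with sg5. ZNF568, whose mouse counterpart represses a placental transcript of Igf2, was at 2.45 and 2.4 CPM in LacZ, 2.25 and 2.09 with sg1, and 2.13 and 1.82 with sg5. All 4 values were below LacZ, yet the log2 fold change of -0.23 had an SE of 0.21. ZNF382 was at -0.21 (SE 0.23) for both sgRNAs.

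Cluster 12 (43.5 to 45.1 Mb, 19 of 24) and cluster 15 (51.6 to 53.6 Mb, 35 of 39, each with a KRAB pattern) had median log2 fold changes between -0.04 and 0.03 with sg1 and sg5. Cluster 12 summed to 105 and 116 TPM in LacZ, 105 and 107 TPM with sg1, and 111 and 100 TPM with sg5. Cluster 15 summed to 159 and 158 TPM in LacZ, 149 and 155 TPM with sg1, and 163 and 147 TPM with sg5. In both, the lowest sum was that of sg5 replicate 2. ZNF224, a partner of the WT1 factor in leukemia cells, was at 12.2 and 12.6 CPM in LacZ, 9.53 and 14.1 with sg1, and 12.5 and 10.6 with sg5. ZNF331, an imprinted gene, was at 26.4 and 25.6 CPM in LacZ, 17.8 and 25.9 with sg1, and 24.0 and 23.5 with sg5. In each, sg1 replicate 1 was the lowest sample. ZNF350, a partner of BRCA1, had a log2 fold change of 0.15 (SE 0.16) for both sgRNAs, and ZNF808 one of -0.01 (SE 0.17).

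Cluster 16 (55.5 to 58.5 Mb, 51 of 59), the largest, summed to 264 and 279 TPM in LacZ, 252 and 265 TPM with sg1, and 251 and 241 TPM with sg5. Its members had a median log2 fold change of -0.02 with sg1 and -0.06 with sg5. In the mean of the sg1 and sg5 contrasts, 33 of 51 were below 0, beside 51.3% of all genes. The lead gene ZNF580 was at 20.7 and 23.0 CPM in LacZ, 20.9 and 22.6 with sg1, and 18.1 and 15.4 with sg5, and its neighbour ZNF581 at 21.4 and 21.9, 19.1 and 23.7, and 23.3 and 15.8. For ZNF580, unlike ZNF581, both sg5 samples lay below both LacZ samples (-0.38, SE 0.14, adjusted p = 0.649). ZNF274, which brings SETDB1 to the ends of zinc finger genes themselves, was at 15.9 and 15.5 CPM in LacZ, 12 and 17.6 with sg1, and 15.1 and 15.8 with sg5. ZNF324 was at -0.06 (SE 0.13) for both sgRNAs.

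**Figure D5:**
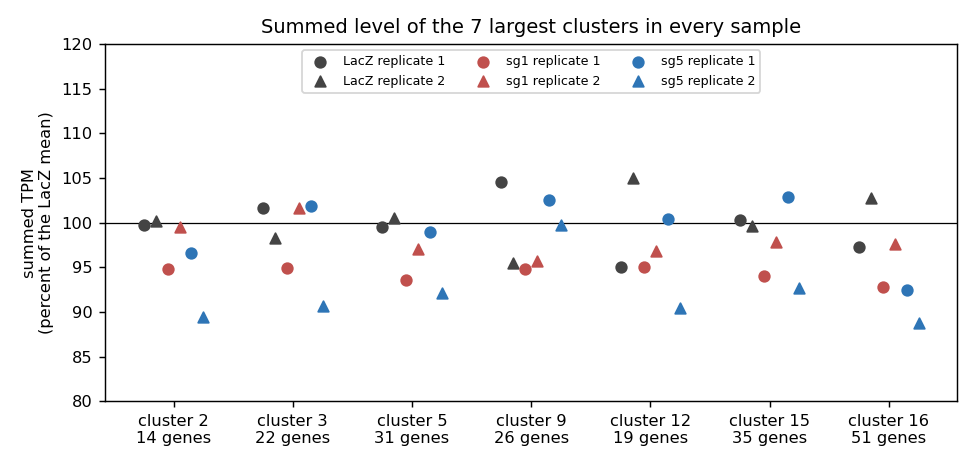
Summed TPM of the 7 clusters with 14 or more members in every sample, as a percent of the mean of the LacZ samples (axis from 80 to 120). Samples sg1 replicate 1 and sg5 replicate 2 lie low in most clusters, and cluster 12 and cluster 9 have LacZ replicates as far apart as the groups.

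The smaller positions held 1 to 4 members each. Cluster 1 was led by ZNF77 (-0.23, SE 0.19), cluster 7 by ZNF507 (0.20, SE 0.12), cluster 8 by ZNF302 (0.01, SE 0.15), cluster 10 by ZNF780A (-0.21, SE 0.16) and cluster 11 by ZNF574 (0.12, SE 0.13), as log2 fold changes for both sgRNAs. Cluster 14 was ZNF473, which acts in histone pre-mRNA processing (-0.10, SE 0.13). The adjusted p of these 6 genes lay between 0.744 and 0.994 in edgeR.

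Between the sgRNAs, the median difference over members was near 0. The median log2 difference of sg1 against sg5 was -0.03 over members (127 of 216 below 0, 58.8%, beside 50.5% of all genes) and 0.09 over the other 834 protein-coding genes of chromosome 19 (23.7% below 0). Members without KRAB had a median of 0.07 and members with KRAB -0.05. The member median was smaller than its spread between replicates (0.0488) and ran from -0.049 to 0.012 when 1 replicate was left out, turning to 0.009 without sg1 replicate 1 and 0.012 without sg5 replicate 1. These are descriptions without a test. GC content moved with them: over the members, GC percent and the sg1 against sg5 difference had a Spearman's rho of 0.2, over the 39 members without KRAB 0.53, over the 177 with KRAB 0.06 and over all genes 0.3, for genes that share the same libraries. The LacZ replicates alone also differed by GC content. In LacZ replicate 2, GC percent and the deviation from the LacZ mean had a rho of 0.25 over the members. It was 0.56 over members without KRAB, 0.14 over those with KRAB and 0.2 over all genes, with the opposite sign in LacZ replicate 1. The part of GC content in these values was not tested. The GC-rich members ZNF580, ZNF579 and ZNF865 (61.7%, 65.9% and 71.1%) had an unadjusted p under 0.05 here and were higher with sg1 than with sg5 by 0.37, 0.40 and 0.42 (log2), each with an adjusted p of 1 in edgeR. ZNF579 and the further pair with a p under 0.05, ZNF761 (0.66) and ZNF552 (-0.61), were named after their values were seen.

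None of the 22 partners of KRAB examined passed the test. The list held 24 symbols for 23 genes, since TASOR is another name of FAM208A, and UHRF1 was not analysed here. Of the 22 genes, 0 passed an FDR of 0.1 in edgeR in the sg1, sg5 or joint comparison (0.0378%, 0.0972% and 0.167% of all genes), with 0 at an unadjusted p under 0.05 in the joint one and 0 called by DESeq2 with sg1 or sg5 (lowest adjusted p = 0.652). Their log2 fold changes for both sgRNAs ran from -0.2 to 0.24, with a median of 0.10. TRIM28 was at 678 and 730 CPM in LacZ, 821 and 667 with sg1, and 669 and 791 with sg5. SETDB1 was at 75.8 and 81.4 CPM in LacZ, 57.9 and 80.6 with sg1, and 73.8 and 61.3 with sg5. TRIM28 was highest and SETDB1 lowest in sg1 replicate 1 and sg5 replicate 2.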

How the data were processed

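RNA was measured in 6 NB4 samples, 2 each of LacZ, sg1 and sg5, grouped by title. Per the labels, the authors used kallisto, DESeq2 and the build hg19, and the human transcript set is not given in the sources used here. The authors deposited estimated counts, in which a read shared by several transcripts is divided among them, and TPM, scaled by effective length. Of 196354 transcripts, 181857 (92.6%) matched GENCODE 29 (GRCh38) by identifier and held 95.44% to 95.53% of counts. The unmatched ones were not used here, so a gene with copies among them can be understated. Coordinates come from that match.

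Counts were summed per gene and rounded, as was TPM without rounding. edgeR 4.0.16 (R 4.3.3) was run with TMM, filterByExpr at a minimum count of 10 and the robust quasi-likelihood F-test, with all 6 samples and 3 groups in 1 model and Benjamini-Hochberg adjustment over 18514 genes. All 216 members passed the filter. Standard errors came from the F statistic. DESeq2 1.42.0 was an alternative. CPM were scaled by TMM factors, and log2 CPM used a prior count of 2. On simulated counts for sg1 against LacZ (18030 genes), edgeR recovered 74.7% of genes changed by a log2 of 1. It recovered 99.3% of those changed by 2, with 14.2% false calls. These shares describe the simulated counts only, and no separate share was given for members of low count. Whether they hold for the measured samples was not tested. There, ZNF536 at -0.99 (log2) with sg1 had an adjusted p of 0.706 in edgeR.

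Fingers and KRAB patterns were counted by Python 3.11.15 in proteins translated from the GENCODE coding sequence. Named genes were those called, up to 5 per direction with the smallest p and no overlap with LacZ, the 5 most abundant, the 3 largest changes per direction with at least 50 counts, a panel of 18 with a known role, and the lead of each cluster, 44 in all. Alternatives covered the test, scaling, filter, length offset, replicate block and samples left out. Members and lists were chosen with earlier results of these data known. Same-numbered replicates did not deviate together (r of 0.07, 0.01 and -0.21 for the 3 pairs of groups), so the number was not used as a block. One gene of the cell type marker lists is not reported here.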

Additional observations from a re-analysis of the deposited data

Results flagged for a closer look

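Of 44 named genes tested over the 4 ARID1A-deficient samples, 1 had a sample far from the others, fewer than the 1 in 20 that chance gives. ZNF350 was at 7.16 CPM in sg5 replicate 2 and at 8.82 to 9.02 CPM in the other ARID1A-deficient samples, a gap of 0.89 of the whole range, which passes Dixon's 95% limit. The low value lies at the level of LacZ replicate 2 (7.18 CPM).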

How the results depend on the processing

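In edgeR, 0 members were called in each comparison when a single replicate was left out, under other size factors, with the length offset, and with a replicate block (0 of 216 members in each comparison, with 5, 5, 6 and 2 at an unadjusted p under 0.05 for sg1, sg5, both and sg1 against sg5). The block changed no call. Without the filter on low counts, 2 members were called with sg1 (ZNF566 and ZNF880), 1 with sg5 (ZNF865) and 3 for both sgRNAs (ZNF566, ZNF536 and ZNF865), beside 1.05%, 1.92% and 2.12% of all genes. DESeq2 called 1 with sg5 and 1 for both. Without sg1 replicate 1 and sg5 replicate 2 together, 1 member was called with sg1 (ZNF880), 4 with sg5 (ZNF358, ZNF579, ZNF709 and ZNF865), 4 for both (ZNF536, ZNF358, ZNF709 and ZNF865) and 2 in sg1 against sg5 (ZNF761 and ZNF709), beside 2.2%, 4.09%, 4.22% and 1.12% of all genes. The causes were not tested, and the last setting leaves 1 residual degree of freedom. Members above both LacZ samples in all 4 ARID1A-deficient samples numbered 12 by library totals and 6 by TPM. Of the other values, 144 counts and medians stayed within 1.5 times the count or within the spread of the member median between replicates (0.0488, log2). A further 661 values were unchanged, most of them log2 fold changes of named genes that kept their direction and side of the threshold. The rest of the 661 were counts of members below both LacZ samples by sample, which stayed within 1.5 times. Another 7 log2 fold changes of named genes passed the threshold. The member medians did not keep their sign: leaving out 1 replicate, they ran from -0.063 to 0.012 for sg1, -0.044 to 0.013 for sg5, -0.033 to 0.02 for both and -0.049 to 0.012 between the sgRNAs.

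The direction of some uncalled named genes near 0 turned (log2 fold change for both sgRNAs). By library totals it became -0.03 for ZNF561, -0.02 for ZNF253, -0.03 for ZNF85 and -0.03 for ZNF302. With the length offset it became -0.01 for ZNF561, -0.65 for ZNF791, -0.03 for ZNF253, -0.07 for ZNF431, -0.02 for ZNF302, 0.06 for ZNF382, 0.08 for ZNF808 and 0.05 for ZNF274, and with the replicate block added -0.01, -0.62, -0.03, -0.07, -0.02, 0.05, 0.08 and 0.04. Over genes with at least 50 counts it rounded to 0.00 for ZNF85 and ZNF302. Without the pair of samples it became -0.01 for ZNF146, -0.01 for ZNF574, 0.10 for ZNF224, 0.05 for ZNF808, 0.03 for ZNF83, 0.12 for ZNF581 and 0.06 for ZNF274. Leaving out 1 replicate, it ran from -0.12 to 0.64 for ZNF358, -0.06 to 0.10 for ZNF561, -0.07 to 0.10 for ZNF253, -0.05 to 0.08 for ZNF85, -0.11 to 0.12 for ZNF302, -0.02 to 0.22 for ZNF428, -0.23 to 0.05 for ZNF224, -0.14 to 0.14 for ZNF808, -0.14 to 0.00 for ZNF83, -0.23 to 0.04 for ZNF581, -0.19 to 0.07 for ZNF274 and -0.17 to 0.07 for ZNF324.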

Other observations

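Genes of low count, members and others, had medians below 0. The 23 members with a mean under 50 counts had a median log2 fold change of -0.29 with sg1 and -0.14 with sg5. Over all 4340 genes tested with a mean of 10 to under 50 counts, the medians were -0.08 and -0.14. The 193 members with at least 50 counts had medians of -0.01 and 0.00. Summed, the members under 50 counts were at 18.3 and 16.6 TPM in LacZ, 12.7 and 15.9 TPM with sg1, and 14.3 and 13.8 TPM with sg5, so each ARID1A-deficient sample was below both LacZ samples. This split was not among the comparisons planned and has no test.

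Members whose TPM and CPM moved differently numbered 5, with a ratio that spanned over 2-fold across the 6 samples (ZNF709, ZNF791, ZNF566, ZNF540 and ZNF28). For ZNF709, with 78.6% of its 31-base words in other genes, the counts were 85 and 24 in LacZ, 53 and 36 with sg1, and 7 and 104 with sg5, so the replicates of a group differed by more than any pair of group means.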
